A study of Homo sapiens with 20 samples.

Results

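The KLK5 to KLK14 genes were examined as 1 interval of 150 kb on chromosome 19 (hg19), which holds 10 kallikrein genes, all on the minus strand. It begins 6559 bp before the 3′ end of KLK5 (51446559) and ends 2498 bp beyond the start of KLK14 (51587502). Every H3K4me3 and H3K27ac region of LNCaP cells and every CTCF peak of all cells with its centre in the interval was taken, which gave 55 regions and peaks of 790482 in the 20 deposited lists. LNCaP, a prostate cancer cell line, was profiled for CTCF and for both histone marks. IMR90, a lung fibroblast line, was profiled for CTCF with a standard and with a low-cell protocol. All cells carried siRNA and were harvested at 144 h. Controls received 20 nM of a pooled non-targeting siRNA and the other cells 20 nM of a pooled CTCF siRNA. The study describes a second transfection on the way to harvest for LNCaP and states none for IMR90. Each of the 10 conditions had 2 libraries, the siRNA was given to whole cell populations rather than to clones, and the study's methods describe the ChIP-seq experiments with the standard protocol as done in biological duplicate. The labels do not say how they were kept apart, and p-values measure the spread between these libraries.

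Kallikreins are secreted serine proteases whose genes form the largest uninterrupted cluster of protease genes in the human genome. Those near KLK3, the gene of prostate-specific antigen, are driven by the androgen receptor in prostate luminal cells, whereas those from KLK5 onwards act mainly in skin, brain and other epithelia and are often silenced together in prostate cancer. H3K4me3 marks active promoters, H3K27ac marks active promoters and enhancers, and CTCF is a zinc finger protein that binds DNA and helps to fold chromatin into loops and domains.

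The interval lies beside 2 CTCF sites in the gap between KLK4 and KLK5, here called the border sites, and itself contained 2 CTCF sites of control LNCaP cells, both at KLK10. The farther border site and both KLK10 sites held a match to the CTCF consensus motif, which has 14 bases and was searched on both strands within 100 bp of the peak summit with up to 2 mismatches. Such a match was present at 73.7% of the 33412 LNCaP control sites. How often sequence without a CTCF peak holds such a match was not tested. The stretches of these 3 sites are shown because the siRNA separated them: the border site kept its peaks in LNCaP and the KLK10 sites did not. Each stretch has 94 bases of the hg19 genome with the motif in capitals, written 5′ to 3′ on the strand that carries the motif.
Border site farther from KLK5, chr19:51425642-51425735, minus strand: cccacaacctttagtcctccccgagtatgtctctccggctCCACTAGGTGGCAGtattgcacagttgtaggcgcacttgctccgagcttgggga
KLK10 coding exon site, chr19:51520157-51520250, minus strand: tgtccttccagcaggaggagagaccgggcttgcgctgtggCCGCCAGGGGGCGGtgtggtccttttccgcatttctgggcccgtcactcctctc
KLK10 upstream site, chr19:51524423-51524516, plus strand: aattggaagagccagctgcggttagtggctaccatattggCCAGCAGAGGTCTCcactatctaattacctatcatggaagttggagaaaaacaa
The motif of the farther border site had 0 mismatches to the consensus, that of the KLK10 coding exon site had 1, and that of the KLK10 upstream site had 2. The motif of the KLK10 coding exon site contained 2 CpG dinucleotides and its stretch was 66.0% G and C, against 0 CpG and 44.7% at the KLK10 upstream site. At KLK10, 1 motif lay on each strand.

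LNCaP control cells had a strong CTCF peak in a coding exon of KLK10 and a weaker one upstream of that gene, and neither was called in either CTCF siRNA library. KLK10 encodes a kallikrein first found as a gene expressed in normal but not in transformed breast epithelium. The coding exon site (51519985 to 51520401) had a fold enrichment over local background of 31.0 in both control libraries. Of all LNCaP control sites, 5.55% were at least this strong by mean control fold enrichment, and 56.2% of those were lost. The site 794 bp upstream of the KLK10 gene start (51524225 to 51524646) had fold enrichments of 15.2 and 18.3, and 76.8% of the sites at least as strong were lost. Both interval sites were thus lost, as were 90.7% of all LNCaP control sites. Peaks in the interval numbered 2 and 4 in the control libraries and 0 and 0 after CTCF siRNA (p = 0.33 in a two-sided exact permutation test, which cannot go lower with 2 libraries against 2). The other peaks of control replicate 2 were weak, with fold enrichments of 4.50 in an intron of KLK7 and 3.60 in an intron of KLK14.

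The border sites were called in all 4 LNCaP libraries although they were no stronger in controls than the KLK10 coding exon site. The farther one (51425322 to 51425871) had fold enrichments of 11.4 and 13.9 in controls, against 8.86 and 11.1 with CTCF depleted. The nearer one had 15.6 and 22.4 in controls, against 7.85 and 16.4 with CTCF depleted. Fold enrichment is a ratio to local background within a library and was not scaled between libraries, so these values do not measure how much binding remained. Of LNCaP control sites at least as strong as these 2, 82.9% and 73.4% were lost. The CTCF siRNA lists were short, with 3732 and 7736 peaks against 38018 and 46365 in control cells, and the shorter of them came from the library that the study lists with the fewest reads of the LNCaP CTCF libraries. The part of depth in the lost peaks was not tested.

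In IMR90 cells the 2 KLK10 sites parted. With the standard protocol the coding exon site was called in all 4 libraries, with fold enrichments of 9.75 and 8.73 in controls against 7.61 and 9.52 with CTCF depleted, and the 2 groups overlapped. The upstream site had 13.2 and 19.3 in control cells and no peak after CTCF siRNA. The stronger of the 2 in IMR90 was therefore the one that was lost, and of IMR90 control sites at least as strong as it 9.41% were lost, against 48.6% of all. The coding exon site, lost in LNCaP and persistent in IMR90, shared that pattern with 50.4% of the 24221 sites found in the controls of both cell lines, and the upstream site was among the 37.5% lost in both. The study reports a weaker knockdown of CTCF mRNA in IMR90 than in LNCaP and describes a different transfection for IMR90. The part of either in these differences between the cell lines was not tested. The border sites persisted in IMR90 as well, with fold enrichments from 16.0 to 28.7 over both sites and 4 libraries. The interval held 2 and 2 peaks in controls, against 1 and 1 with CTCF depleted (exact permutation test, p = 0.33).

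The low-cell protocol found all 4 sites in both IMR90 control libraries and none of them after CTCF siRNA. Control fold enrichments were 7.17 and 6.86 at the KLK10 coding exon site and 6.10 and 6.23 at the KLK10 upstream site, and the border sites had 12.0 and 14.8 (farther) and 5.87 and 4.70 (nearer). With this protocol 89.1% of all control sites were lost, and its CTCF siRNA lists held 5193 and 2057 peaks. The same cell line after the same siRNA thus gave a KLK10 coding exon peak in both libraries of one protocol and in neither of the other. The difference between the protocols was not tested.

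**Figure D1:**
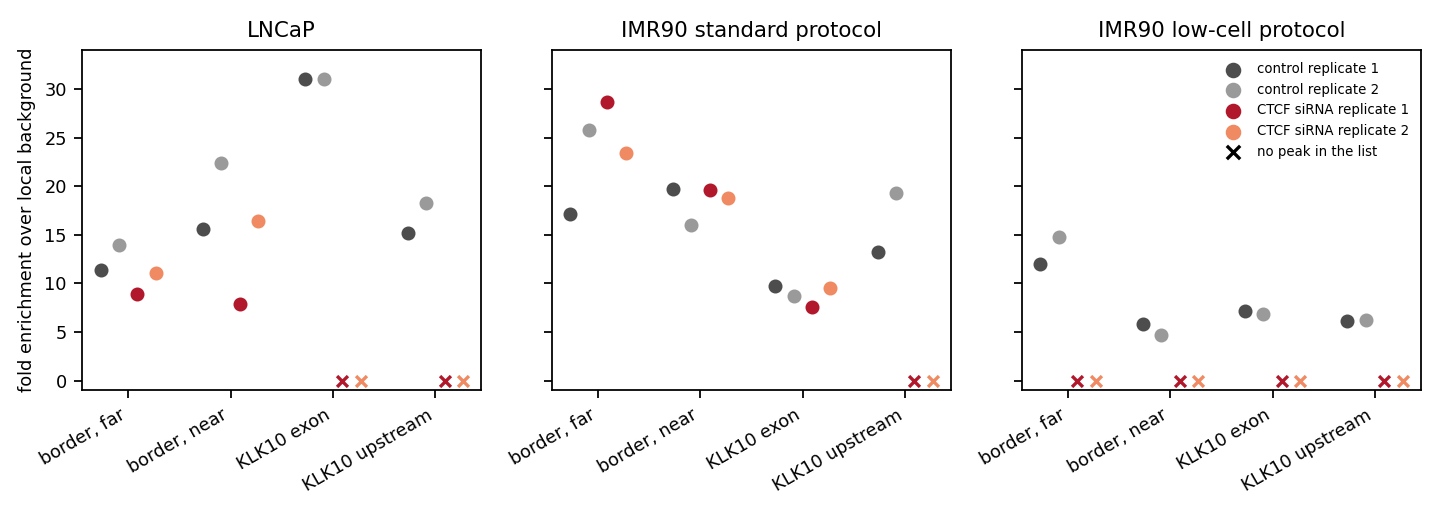
Fold enrichment of CTCF over local background (vertical axis, a ratio) at the 2 border sites and the 2 KLK10 sites, 1 point per library, in LNCaP and in IMR90 with both protocols. Crosses at the foot mark libraries without a peak: both KLK10 sites after CTCF siRNA in LNCaP, the KLK10 upstream site in IMR90 with the standard protocol, and all 4 sites with the low-cell protocol.

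H3K27ac covered more of the interval in both CTCF siRNA libraries than in both controls, as it did in most windows of chromosome 19. Its regions numbered 4 and 2 in the control libraries and 7 and 9 after CTCF siRNA, and they covered 6650 and 3350 bp in controls against 11050 and 15000 bp after CTCF siRNA. The groups did not overlap: the mean covered length was 5000 ± 2330 bp in controls and 13025 ± 2790 bp after CTCF siRNA (SD, n = 2 each), a difference of 8025 bp and a ratio of 2.60, with an exact permutation p of 0.33. On chromosome 19, 64.9% of the windows of 150 kb that held an H3K27ac region were also covered more in both CTCF siRNA libraries than in both controls, and 21.6% had a covered length difference at least as large. Both CTCF siRNA lists were longer (94629 and 99158 regions) than both control lists (87147 and 70100). CTCF siRNA replicate 2, for which the study lists the fewest reads of the mark, also had wider regions, the list median being 1700 bp, while the other 3 lists had medians from 1300 to 1350 bp. Relative to the length covered on the rest of chromosome 19, H3K27ac in the interval was 0.126% and 0.0676% in controls and 0.188% and 0.187% after CTCF siRNA, again without overlap (exact permutation p = 0.33). How many windows of chromosome 19 separate on this scale was not tested.

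The H3K4me3 groups overlapped. The interval held 5 and 3 H3K4me3 regions in controls and 2 and 7 after CTCF siRNA, covering 4150 and 3050 bp against 1700 and 9500 bp (exact permutation p = 1.00). CTCF siRNA replicate 1 had the lowest value and CTCF siRNA replicate 2 the highest, and the latter had the longest list of the mark, 59921 regions against 36638 to 48606. Leaving out CTCF siRNA replicate 2 turned the difference in means from 2000 bp higher to 1900 bp lower after CTCF siRNA (-1900 bp).

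The neighbouring interval of the same width with KLK1, KLK15, KLK3, KLK2, KLKP1 and KLK4, directly before it and with both border sites, was covered far more. H3K27ac covered 93250 and 86450 bp there in controls and 91400 and 102950 bp after CTCF siRNA, so that the groups overlapped (exact permutation p = 0.67). The H3K27ac length of the active side was also divided by the length covered on chromosome 19 outside the KLK5 to KLK14 interval, the active side included. This gave 1.76% and 1.74% in controls and 1.56% and 1.29% after CTCF siRNA. On this scale the groups of the active side did not overlap and the mean after CTCF siRNA was 0.814 of the control mean (exact permutation p = 0.33). Other windows were not tested on this scale. H3K4me3 covered 20650 and 27750 bp in controls and 20550 and 34150 bp after CTCF siRNA (exact permutation p = 1.00). In every library H3K27ac covered 57.6% or more of the active side and 10.0% or less of the KLK5 to KLK14 interval.

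**Figure D2:**
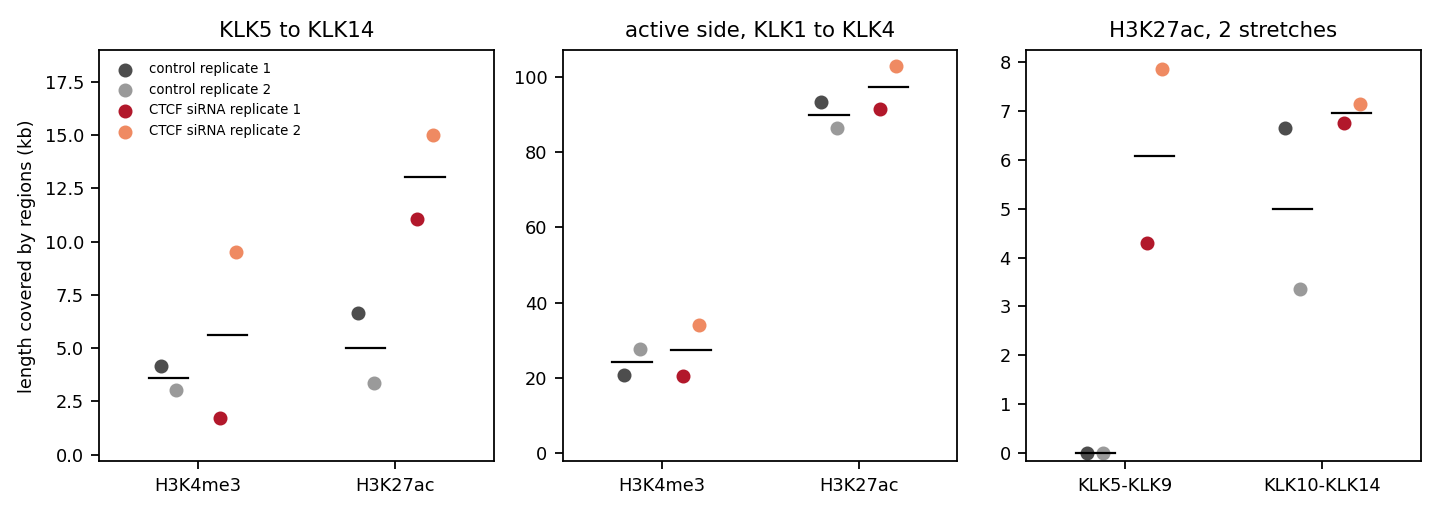
Length covered by deposited regions (vertical axis, kb) in each library, with a bar at the mean of each pair: both marks in the KLK5 to KLK14 interval (left), both marks on the active side (centre, other scale), and H3K27ac in the KLK5 to KLK9 and KLK10 to KLK14 stretches (right). In the KLK5 to KLK9 stretch both controls were at 0 bp and the CTCF siRNA libraries at 4300 and 7850 bp.

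The larger H3K27ac covered length after CTCF siRNA lay mostly at the KLK5 end. The study tested read counts in peaks of both marks and reported no significant change at the kallikrein locus after CTCF siRNA. Lists of called regions hold no read counts, so that test could not be repeated here. From the start of the interval to the last base before KLK10 (51515994, a division chosen after the values were seen), H3K27ac covered 0 and 0 bp in controls and 4300 and 7850 bp after CTCF siRNA. In the KLK10 to KLK14 stretch it covered 6650 and 3350 bp in controls and 6750 and 7150 bp after CTCF siRNA. Of 632 windows of the former length on chromosome 19 that held an H3K27ac region, 1.74% were covered in both CTCF siRNA libraries but in no control library. Windows without H3K27ac in controls were few, however, and of the 38 such windows with a region in at least 1 CTCF siRNA library, 28.9% had one in both. These windows were not placed by their values, as the stretch was, so neither share measures how rare its pattern is.

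Merged over the 4 libraries, the interval held 10 H3K27ac regions, 8 of them in at least 2 libraries. Of these, 4 were called in both CTCF siRNA libraries but in no control library, 0 showed the reverse, and 1 was called in all 4. Genome-wide, 13.2% of the 83272 H3K27ac regions in at least 2 libraries were found only after CTCF siRNA. The genome-wide shares of the reverse pattern and of a call in every library were not counted. The 4 regions lay 10.9 to 49.3 kb from the nearer border site, from the gap before KLK5 to the body of KLK7. No merged region of the mark covered the gene start of a kallikrein.

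The nearest to the border was an intergenic region (51443551 to 51444800), past the 3′ end of KLK5, with widths of 950 and 1150 bp in the CTCF siRNA libraries. KLK5 encodes a trypsin-like protease of the outer skin that activates other kallikreins. In controls the nearest H3K27ac region to its start was the one at the farther border site, 30199 and 29999 bp away. In CTCF siRNA replicate 1 it was the intergenic region, 11549 bp away, and in CTCF siRNA replicate 2 a region in KLK6, 10452 bp away. The region ranked at 80.8% of the list of CTCF siRNA replicate 1 and at 58.6% of that of CTCF siRNA replicate 2, where regions were ordered from the lowest to the highest value of column 4 of the lists, wider regions first among equal values. That column carries no stated meaning. It was used only for order within a list.

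KLK6, which encodes a protease abundant in brain, held an H3K27ac region in its body (51468951 to 51470450) that was 900 and 1450 bp wide after CTCF siRNA. It reached a coding exon in CTCF siRNA replicate 2 alone and lay in an intron in CTCF siRNA replicate 1. The ranks were 76.1% and 85.9%. A further region in KLK6 (51466801 to 51468150) was called in CTCF siRNA replicate 2 alone, with a width of 1350 bp and a rank of 54.2%. Within the body of KLK6, H3K27ac covered 0 and 0 bp in controls and 900 and 2800 bp after CTCF siRNA.

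KLK7 encodes a chymotrypsin-like protease that cleaves the links between cells of the outer skin. Between KLK6 and KLK7, in an intron of the antisense gene ENSG00000267879, lay the third region (51478351 to 51479700), 900 and 1050 bp wide, at ranks of 76.1% and 79.9%. H3K4me3 was already present there in control cells (51478551 to 51479650), with widths of 700 and 900 bp in controls, none in CTCF siRNA replicate 1 and 1100 bp in CTCF siRNA replicate 2. The fourth region (51481701 to 51483350), over a coding exon of KLK7, was 1550 and 1600 bp wide and stood highest of the 4, at ranks of 49.5% and 49.0%. Another KLK7 region (51484751 to 51486000, 1250 bp) was called in CTCF siRNA replicate 2 alone, at 76.8%. H3K27ac covered 0 and 0 bp of the KLK7 body in controls and 1550 and 2850 bp after CTCF siRNA.

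KLK8, which encodes neuropsin, a protease of brain and skin, and KLK9, a little studied kallikrein, had no H3K27ac in their bodies in any library. An H3K4me3 region of 2050 bp (51504251 to 51506300) covered the KLK8 gene start and a UTR of KLK9 in CTCF siRNA replicate 2 and in no other library, at a rank of 29.1%. It was the only region of either mark to cover a gene start of the 10 kallikreins. The same library alone had an H3K4me3 region in KLK6 (51465651 to 51466650, 1000 bp, rank 84.2%).

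At KLK10 the order was reversed. The H3K27ac region over the lost upstream CTCF site (51523951 to 51525400), 520 bp from the gene start, was 1450 and 1050 bp wide in controls, 600 bp in CTCF siRNA replicate 1 and not called in CTCF siRNA replicate 2. Its ranks were 44.2% and 54.9% in controls and 93.0% in CTCF siRNA replicate 1. The coding exon with the other lost CTCF site carried H3K4me3 (51519701 to 51521200), of 900 bp in control replicate 1, not called in control replicate 2, and of 800 and 1500 bp after CTCF siRNA. This H3K4me3 region covered the start of another annotated KLK10 transcript.

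KLK11 encodes a trypsin-like protease found in prostate and brain. Its coding exon region of H3K27ac (51527801 to 51528950) was called in control replicate 1 (900 bp) and CTCF siRNA replicate 2 (1150 bp), and its H3K4me3 region (51527851 to 51528650) likewise in control replicate 1 and CTCF siRNA replicate 2 of that mark, with 750 bp in each. KLK12, another trypsin-like kallikrein, had no region of either mark in its body.

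Between KLK13 and KLK14, which encode trypsin-like proteases of testis and skin, lay the widest H3K27ac region of the interval in every library. This region (51572501 to 51576800), 4130 bp upstream of the KLK13 start, was called in all 4 libraries, with widths of 3050 and 2300 bp in controls and 4200 and 3900 bp after CTCF siRNA. The groups did not overlap, the mean width was 1375 bp larger after CTCF siRNA and the exact permutation p was 0.33. Divided by the median width of its list, the H3K27ac region had 2.26 and 1.77 in controls. It had 3.11 and 2.29 after CTCF siRNA, so that on this scale the groups nearly met. How many other regions widened in this way was not tested. The H3K4me3 region inside it (51573201 to 51574700) was 1200 and 1500 bp wide in controls and 900 and 1350 bp after CTCF siRNA, with overlapping groups (exact permutation p = 0.67). The ranks of the H3K27ac region were 14.3% and 21.4% in controls and 4.21% and 8.40% after CTCF siRNA.

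A second H3K27ac region, 830 bp upstream of KLK13 (51569201 to 51571300), was 1250 bp wide in control replicate 1, not called in control replicate 2, and 1950 and 2100 bp wide after CTCF siRNA. It overlapped an H3K4me3 region (51569351 to 51571100) that was 600 bp wide in control replicate 1, 1750 bp in CTCF siRNA replicate 2 and not called in the other 2. The body of KLK14 held 1 H3K4me3 region of 650 bp, in control replicate 2 alone (51582701 to 51583350, rank 91.8%). Of the 8 merged H3K4me3 regions and the 10 merged H3K27ac regions of the interval, 4 of each mark overlapped one of the other mark.

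**Figure D3:**
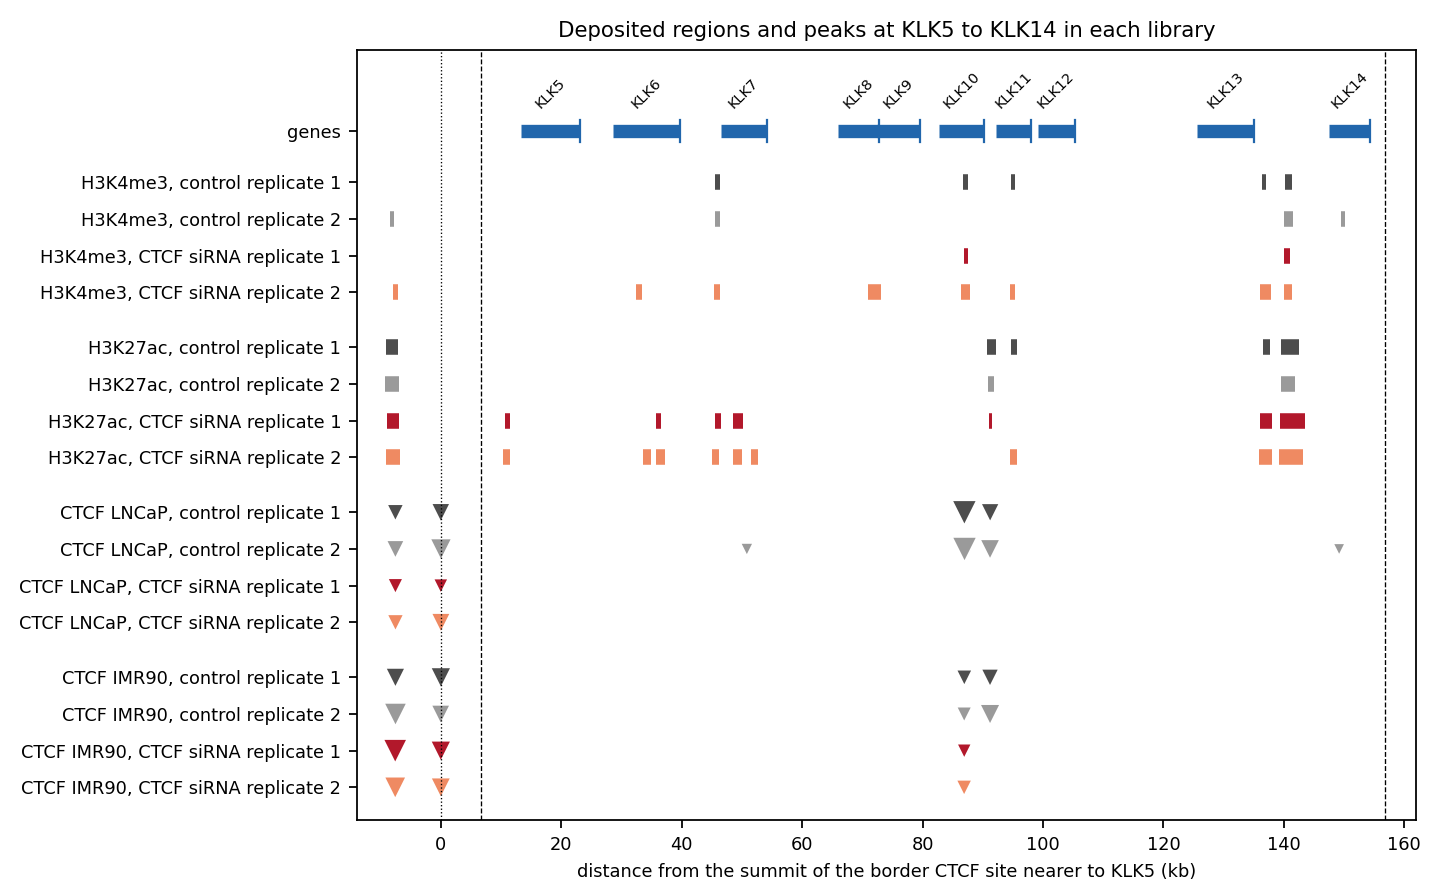
Deposited regions and peaks along the interval, 1 row per library, against the distance from the summit of the nearer border site (kb). CTCF rows are those of LNCaP and of IMR90 with the standard protocol, and the low-cell libraries are not shown. Blocks are regions to scale, triangles are CTCF summits with an area that grows with fold enrichment, dashed lines bound the interval, and the tick on each gene marks its start. H3K27ac rows of control cells are empty between 0 and 90 kb, the CTCF siRNA rows hold 4 and 6 blocks there, and the LNCaP CTCF rows after siRNA hold the 2 border sites and no other peak.

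None of the 8 merged H3K4me3 regions, 5 of them in at least 2 libraries, was called only in both CTCF siRNA libraries or only in both controls. Genome-wide, 6.44% of the H3K4me3 regions in at least 2 libraries were found only after CTCF siRNA. Of the 360 chromosome 19 windows with an H3K4me3 region, 82.8% had none of that pattern. The genome-wide share found only in both controls was not counted.

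Around gene starts, taken as 1000 bp on either side, the members were mostly bare. H3K4me3 was found there at KLK8 and KLK13 in CTCF siRNA replicate 2 and at 0 of the 10 genes in the other 3 libraries, while 60.3% of 20136 protein-coding genes had it in all 4. H3K27ac was found at KLK10 in both controls and CTCF siRNA replicate 1 and at KLK13 in both CTCF siRNA libraries, while 50.1% of protein-coding genes had it in all 4. KLK13 was thus 1 of 10 members marked with H3K27ac only after CTCF siRNA, against 1.46% of protein-coding genes, and in control replicate 1 the nearest region lay 1330 bp from the start, beyond the limit. For H3K4me3 the corresponding share was 0 of 10 members and 0.77% of protein-coding genes. On the active side, KLK15 and KLK3 had H3K4me3 and KLK15, KLK3, KLK2 and KLKP1 had H3K27ac at their starts in all 4 libraries.

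RefSeq promoters of 300 bases were at hand for 9 of the 10 genes, KLK8 being the exception, and 16 of 16 entries (GRCh38.p14) matched the hg19 sequence exactly. They contained 2 to 23 CpG dinucleotides (median 10.0) against a median of 14.0 over 35116 promoters. Their median content of G and C was higher, 61.85% against 58.7%. Some entries of the same gene overlapped and were counted separately. No H3K4me3 or H3K27ac region and no LNCaP CTCF peak overlapped any of the 16.

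At equal list length, with each H3K27ac list shortened to 70099 regions by lowest column 4, 1 of the 4 regions called only after CTCF siRNA remained in both libraries, the one over the KLK7 coding exon. The intergenic region beside KLK5 then stayed in CTCF siRNA replicate 2 alone, and those in KLK6 and between KLK6 and KLK7 dropped out of both. Among regions in at least 2 libraries, 8.75% were then found only after CTCF siRNA genome-wide. The region over the lost upstream CTCF site of KLK10 became one called in both controls and in neither CTCF siRNA library. The genome-wide share of regions with this pattern was not counted. H3K27ac regions of the interval then numbered 4 and 2 in controls and 3 and 6 after CTCF siRNA, so that these counts overlapped.

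The covered length still separated the groups at equal list length, with 6650 and 3350 bp in controls against 7700 and 11250 bp after CTCF siRNA (exact permutation p = 0.33). Of the chromosome 19 windows, 53.1% were then covered more in both CTCF siRNA libraries. In the KLK5 to KLK9 stretch H3K27ac covered 0 and 0 bp in controls and 1550 and 4100 bp after CTCF siRNA. Windows of that length covered in both CTCF siRNA libraries but in no control library made up 1.33% of all with a region and 40% of the 20 with none in controls. The same limit holds for these shares, as the stretch was divided after its values were seen.

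**Figure D4:**
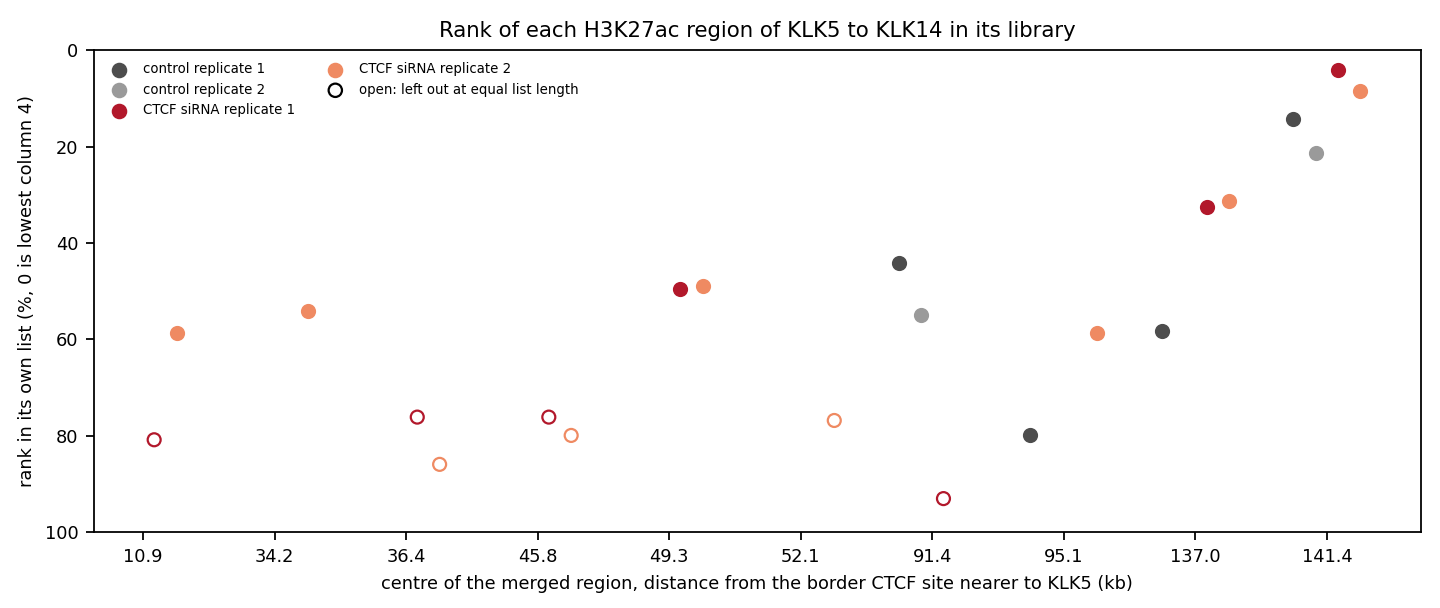
Rank of each H3K27ac region of the interval within its own list (vertical axis, %, lowest column 4 at the top) for the 10 merged regions in order of distance from the nearer border site (kb). Open points left the list when all lists were cut to 70099 regions. The KLK7 coding exon region at 49.3 kb kept both CTCF siRNA points, near 49%, and the region at 141.4 kb ranked highest in all 4 libraries.

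Windows of 150 kb elsewhere on chromosome 19 seldom gained as many H3K27ac regions. Of 348 windows with a region, 6 (1.72%, 95% Wilson interval 0.793 to 3.71%, which covers counting error only) had 4 or more regions called only after CTCF siRNA, the median was 0 and the largest count was 5. The median window held 8.5 merged regions, close to the 10 of the KLK5 to KLK14 interval. At equal list length the interval had 1 such region, and 22% of 337 windows had at least as many. Leaving out CTCF siRNA replicate 1 or 2 raised the share for all regions from 1.72% to 13.5% and 14.4%.

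**Figure D5:**
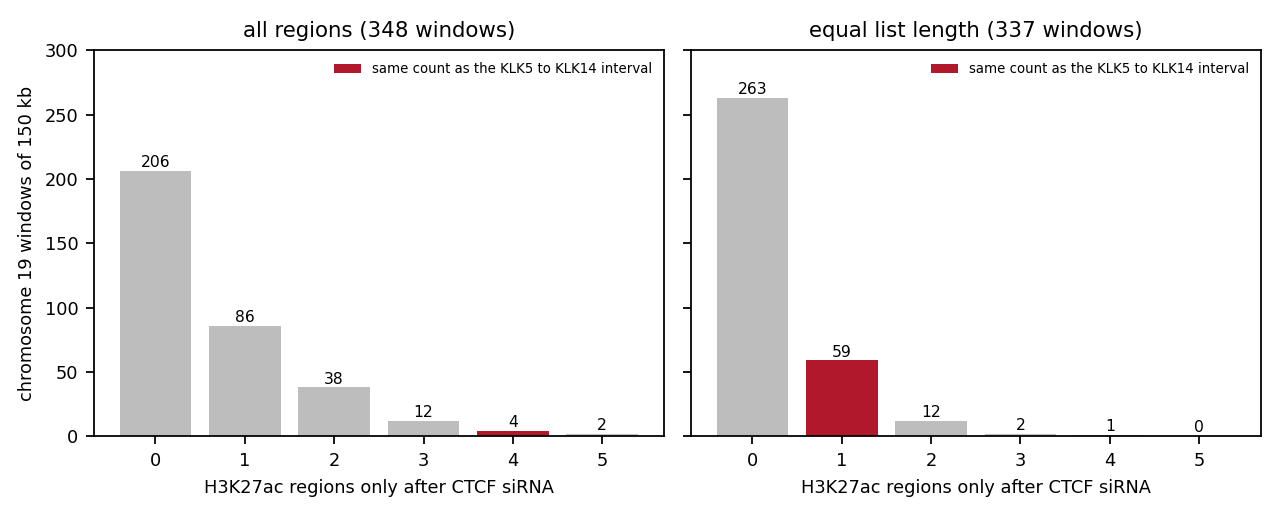
Number of chromosome 19 windows of 150 kb (vertical axis) by the number of H3K27ac regions called only after CTCF siRNA, with all regions (left, 348 windows) and at equal list length (right, 337 windows). The interval itself and the window directly after it, which shares its last base, were left out. The red bar marks windows with the same count as the KLK5 to KLK14 interval: 4 windows at a count of 4 on the left, and 59 windows at a count of 1 on the right.

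Other genes of the kallikrein cascade were read at their gene starts. Of 18 inhibitors, activating proteases, receptors, substrates and regulators, 7 had H3K4me3 in all 4 LNCaP libraries, where 60.3% of protein-coding genes did, among them ST14 and PRSS8, membrane-bound proteases, SPINT1, an inhibitor of such proteases, and F2RL1, a receptor cleaved by kallikreins. H3K27ac was found at 5 of the 18 in all 4 libraries, against 50.1% of protein-coding genes. It was called only after CTCF siRNA at 1 of the 18, SERPINA3, a serine protease inhibitor, against 1.46% of protein-coding genes. The reverse was found at 0 of the 18 for either mark, against 78 (H3K27ac) and 21 (H3K4me3) of 20136 protein-coding genes. SPINK5, the main inhibitor of the skin kallikreins, and their substrates CDSN, DSG1 and DSC1 had neither mark in any library.

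The LNCaP label was checked against marker genes. All 10 prostate luminal markers had H3K27ac at their starts in all 4 libraries. Of 6 basal or squamous markers 1 (SERPINB5) had it in all 4, and of 7 fibroblast and 4 immune markers 0 did. The counts per library ranged from 1 to 2 for basal, 0 to 2 for fibroblast and 0 to 1 for immune markers. H3K4me3 was found in all 4 libraries at 8 luminal and 1 basal marker and at 2 fibroblast markers, TWIST1 and COL1A1. TP63, KRT14, COL3A1, PTPRC and CD3E had neither mark. IMR90 was measured for CTCF alone, so its cell type could not be read from these lists.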

How the data were processed

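The authors aligned reads to hg19 and called peaks of CTCF (MACS2) and regions of the histone marks (PeakRanger) library by library. The deposited CTCF lists give a fold enrichment (a ratio to local background) and p-values and q-values on a −log10 scale, the largest q-value being 0.0499. The deposited histone lists give a score in column 4 whose meaning is not given in the sources used here. Lists hold no reads, so depth per library cannot be read from them and presence or absence does not measure height.

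Within a mark or experiment, entries of the 4 lists on the autosomes, X and Y were merged where they shared at least 1 bp. A CTCF control site needed peaks in both controls, persistent sites also in both CTCF siRNA libraries, and all others were lost. Values per library were compared by two-sided exact permutation tests. Genes were annotated with GENCODE 44 on hg19. All members, every region in at least 2 libraries and every CTCF site of the interval were named, the others being named as single-library calls. The members, lists and tests were chosen with earlier results of these data known. The sequence of 1 CTCF site is not reported here. Functions were tested on simulated lists. Alternatives covered list length, order, overlap, merging, windows, q-value, replicate block and leaving out each library. Python 3.11.15, numpy 2.4.6, pandas 2.3.3, scipy 1.17.1 and matplotlib 3.10.9 were used.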

Additional observations from a re-analysis of the deposited data

How the results depend on the processing

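The count of 4 H3K27ac regions called only after CTCF siRNA depended on list length: it was 1 at equal list length with column 4 lowest first or widest first, 0 at equal covered length and 2 in the 50% of each list with the lowest column 4. It was within 1.5 times of 4 with column 4 highest first, with merging up to 1000 bp apart, with an overlap of 50% and with a call in at least 1 CTCF siRNA library, and ranged from 4 to 6 when single libraries were left out. The count of 0 for H3K4me3 became 2 when 1 CTCF siRNA library sufficed and ranged from 0 to 2 without single libraries. The H3K27ac covered length difference of 8025 bp kept its direction under all 5 alternatives and ranged from 6050 to 10000 bp without single libraries, and the H3K4me3 difference ranged from -1900 to 5900 bp. The share of chromosome 19 windows with as many H3K27ac regions only after CTCF siRNA was 22% at equal list length and ranged from 2.30 to 14.4% without single libraries. For H3K4me3, where every window reaches the interval's count of 0, it ranged from 20.6 to 100%. These window shares without single libraries were added after the data were seen. Lost CTCF sites in LNCaP were 4 when a control site needed a peak in either control library and 2 to 4 without single libraries. At equal list length by p-value the count was 0 in LNCaP and 0 with the low-cell protocol, because no site of the interval stayed in both shortened control lists. Without single libraries it was 1 each time for IMR90 with the standard protocol and 2 each time with the low-cell protocol. Of 49 alternatives that kept all libraries, 40 kept the direction, or a count within 1.5 times or a share within its interval. Some of the 40 could not come out otherwise, so this number does not measure robustness. With an interval count of 0, H3K4me3 window shares were 100% whichever windows were used. A replicate block leaves a difference in means unchanged.

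Replicate numbers were shared by the groups, but no label or method says that they pair these ChIP-seq libraries, and deviations of same-numbered libraries correlated at 0.16 for H3K4me3 and -0.01 for H3K27ac over regions. With the replicate number as a block, the H3K27ac covered length difference was 8025 bp (sign-flip permutation p = 0.50, the smallest that 2 pairs allow) and that of H3K4me3 2000 bp (p = 1.00). Groups of 2 libraries limit every test here, and lists of called regions show neither depth nor height.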
